A study of Mus musculus with 23 samples.

Results

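The integrins and leukocyte adhesion molecules described here are 32 genes named by symbol, among the 47729 gene identifiers in the table of spleen dendritic cell (DC) libraries. They encode the integrin alpha chains (Itga1, Itga2, Itga2b, Itga3 to Itga11, Itgad, Itgae, Itgal, Itgam, Itgav and Itgax), the 8 beta chains (Itgb1 to Itgb8), the immunoglobulin family molecules ICAM-1, ICAM-2, ICAM-4, VCAM-1 and PECAM-1 (Icam1, Icam2, Icam4, Vcam1 and Pecam1), and the selectin ligand PSGL-1 (Selplg). Members were listed by gene name, with earlier results of these data known. All 32 were found in the table.

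An integrin is a pair of 1 alpha and 1 beta chain that spans the membrane and holds a cell to another cell or to matrix. The beta chain sets the family: beta 2 integrins are leukocyte receptors for intercellular adhesion molecules (ICAMs) and complement fragments, beta 7 integrins bind mucosal ligands, beta 1 integrins bind mostly matrix and vascular cell adhesion molecule 1 (VCAM-1), and integrins with the alpha v chain bind ligands with an arginine-glycine-aspartate motif. In DCs the family is best known for surface markers: CD11c, CD11b and CD103 are the products of Itgax, Itgam and Itgae.

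Cells were sorted from spleens of wild type Balb/C mice as DC1a (CD8hi CD172-), DC1b (CD8Int CD172+), DC2 (CD8lo CD172hi) and DC3 (CD8- CD172lo). Mice were Untreated or given TLI, a name the labels do not spell out and which commonly stands for total lymphoid irradiation. Each of the 23 libraries came from 1 pool of mice. Each subset had 2 untreated libraries (pools 1 and 2, both labelled batch 1, a batch the labels do not describe further), and TLI gave 4 libraries (pools 1 and 2 in batch 1, pools 3 and 4 in batch 2) for DC1a, DC1b and DC3 and 3 for DC2, which had none from pool 2. DCs had been enriched and stained for CD11c before sorting, so the product of Itgax was part of how the cells were chosen, as CD8a and CD172a were for the subsets. In a bulk library, more cells of a type and more RNA per cell cannot be told apart.

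Total counts ran from 19256447 to 36997890 per library, and a count of 3, taken as the detection floor, was 0.0811 to 0.156 CPM (counts per 1000000 counts). Summed markers of conventional type 1 DCs (8 genes) were 2814 to 4564 CPM in the DC1a libraries and 223 to 507 CPM in the DC2 libraries, and those of type 2 DCs (7 genes) were 26.2 to 35.5 CPM in DC1a and 1377 to 2729 CPM in DC2. The DC1b libraries held both, with 723 to 1974 CPM of the type 1 and 327 to 1447 CPM of the type 2 markers. The DC3 libraries held 1597 to 2507 CPM of the type 1 and 203 to 319 CPM of the type 2 markers. The part of these mixtures in the subset comparisons was not tested. Other cells' markers stood apart in some libraries. Plasmacytoid DC markers summed to 5588 and 7882 CPM in untreated DC1b and to at most 227 CPM in any other library. Erythroid markers reached 19288 to 133558 CPM in the 7 TLI libraries of pools 1 and 2, against at most 7144 CPM elsewhere. Red pulp macrophage markers were 1893 to 2870 CPM in TLI DC1b of pools 1 and 2 and TLI DC2 of pool 1, against at most 387 CPM elsewhere. Neutrophil markers were 1420 to 20950 CPM in TLI DC1b and 2316 CPM in TLI DC2 of pool 1, against at most 214 CPM elsewhere. Natural killer (NK) cell markers (7 genes) were 4201 and 1068 CPM in TLI DC3 of pools 1 and 2, against at most 550 CPM elsewhere. The TLI DC2 library of pool 3 had far less Itgal and Itgam than the other DC2 libraries, and the values without it are given below where it matters.

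**Figure D1:**
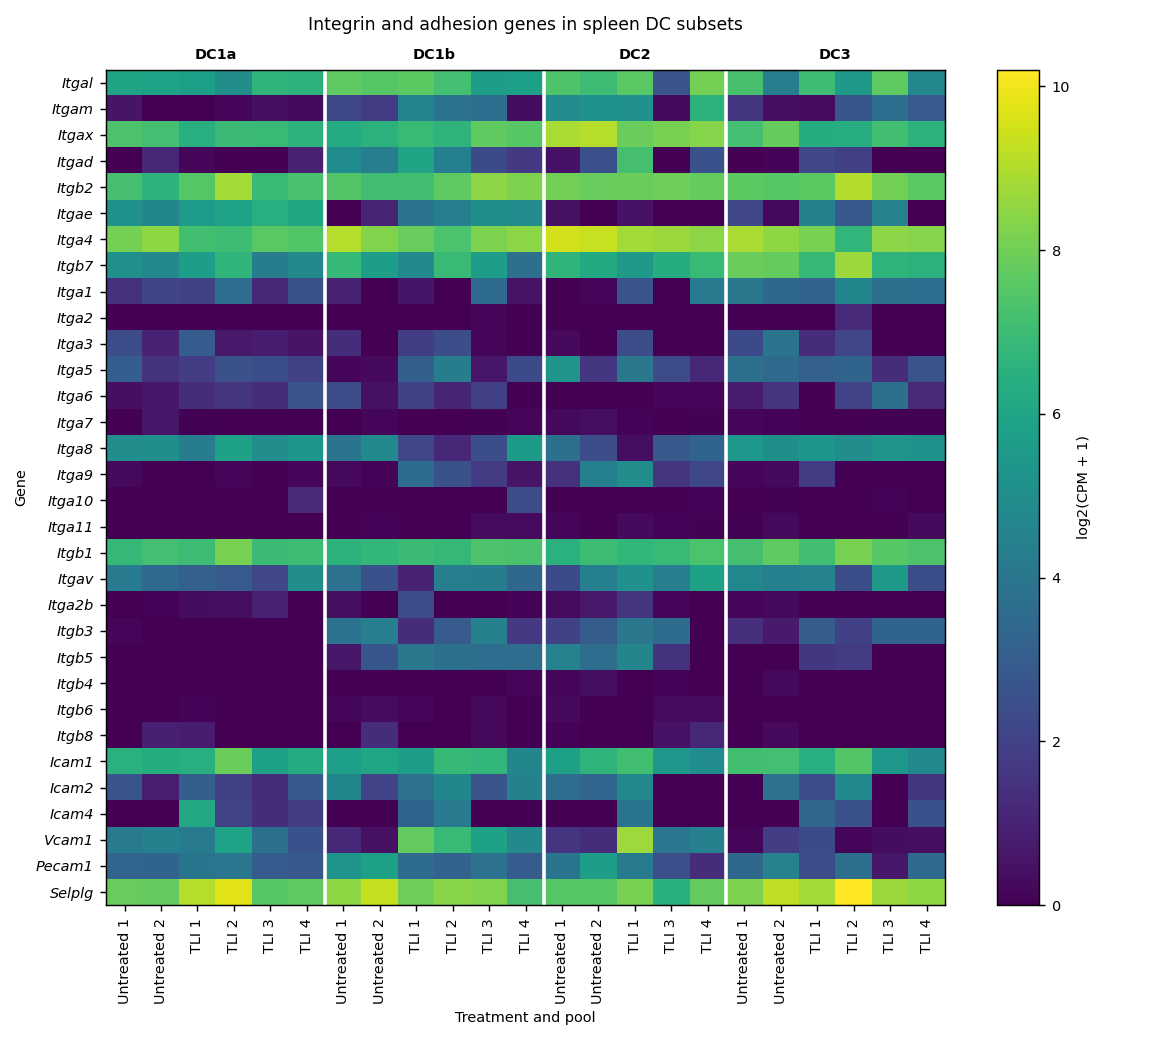
Levels of the 32 genes (rows) in the 23 libraries (columns, by subset, treatment and pool), as log2(CPM + 1) in colour. Itgax, Itgb2, Itgb1, Itga4, Itgb7, Icam1 and Selplg are bright in every library, and Itga2, Itga7, Itga10, Itga11, Itgb4, Itgb6 and Itgb8 stay dark in most.

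Levels between genes were compared as CPM per kilobase (kb) of merged exons. By the mean over the 23 libraries, Selplg was highest at 85.9 CPM per kb and Itgb2 second at 73.4 CPM per kb. Itgax (37.1), Itgb1 (36.0), Itgb7 (34.7), Itga4 (23.5) and Itgal (17.0 CPM per kb) followed, with Icam1 between the last 2. The next gene, Icam4, stood at 5.34 CPM per kb and rested on TLI libraries alone. The DCs therefore carried transcripts for the beta 2 chain with CD11c and CD11a, the beta 7 and beta 1 chains with alpha 4, and few others in quantity. At the low end, Itga2, Itga7, Itga11, Itgb4 and Itgb6, which serve mainly epithelial, muscle or matrix adhesion, did not pass the filter on low counts. The test of the other 27 genes was edgeR's quasi-likelihood F-test, and each adjusted p below comes from it, with Benjamini-Hochberg adjustment over 19597 genes and a threshold of 0.05.

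Across the 6 comparisons of subsets, each the average of the untreated and the TLI difference, 11 of the 27 tested genes passed in at least 1. DC2 against DC1a had the most, 5 higher and 3 lower, beside 7.01% of all genes tested (3.68% higher and 3.33% lower). DC1b against DC1a had 2 higher, beside 2.89% of all genes (1.89% higher, 1% lower). DC3 against DC1a had 2 higher and 1 lower, beside 1.4% (0.714% higher, 0.689% lower). DC3 against DC2 had 1 higher and 2 lower, beside 3.33% (1.4% higher, 1.93% lower). DC2 against DC1b had 1 higher, beside 0.75% (0.25% higher, 0.5% lower). DC3 against DC1b had 0, beside 1.33% (0.352% higher, 0.975% lower), with 7 genes at an unadjusted p under 0.05 and 5 called by DESeq2. The median log2 fold change of the 27 genes was 0.13 in DC1b, 0.33 in DC2 and 0.11 in DC3 against DC1a, beside 0.05, 0.08 and 0.03 over all genes tested. Against DC1b it was -0.08 in DC2 and -0.01 in DC3, beside -0.04 and -0.03 over all genes. For DC3 against DC2 it was -0.11 beside -0.01, and -0.29 with genes at the floor in 1 group set to their bound. Within batch 1 alone the counts were 3 (DC1b), 6 (DC2) and 1 (DC3) against DC1a, and within batch 2, which holds TLI libraries only, they were 0 in all 6 comparisons.

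**Figure D2:**
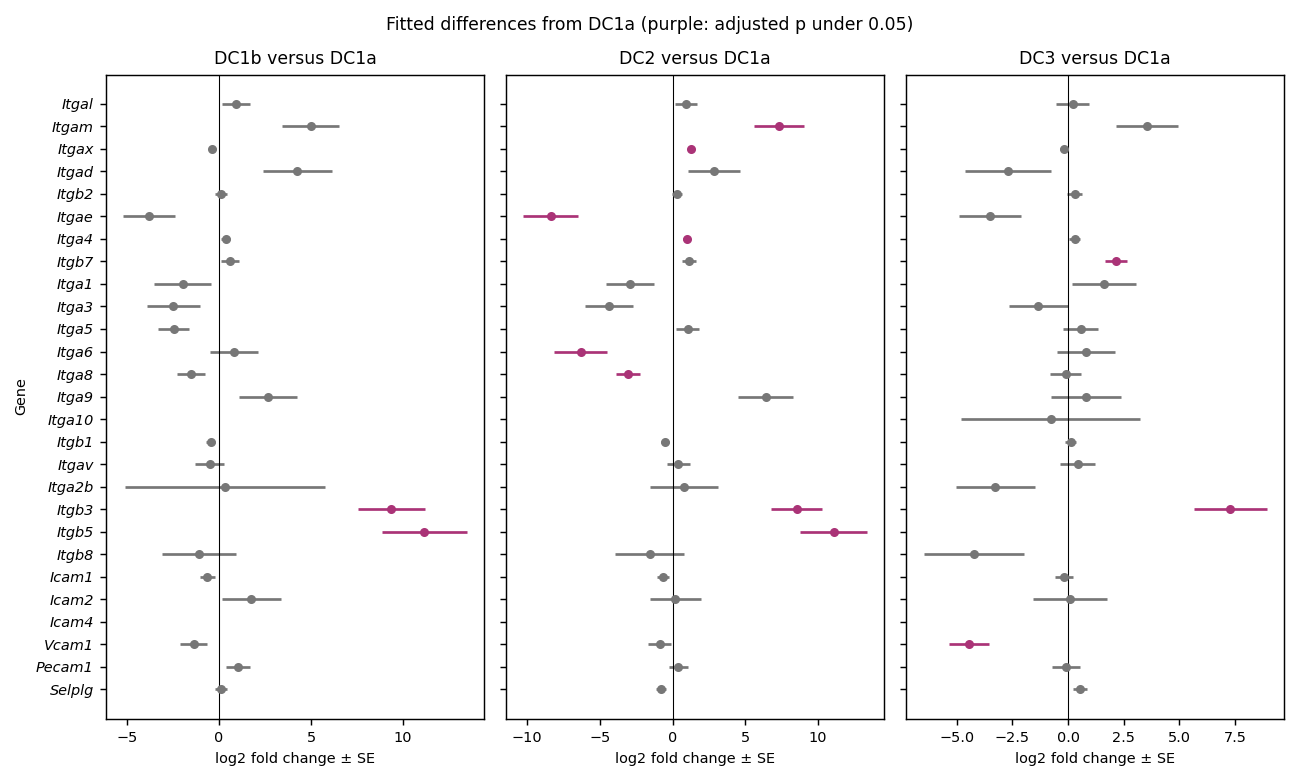
Fitted log2 fold change ± SE (horizontal axis) of the tested genes in DC1b, DC2 and DC3 against DC1a, with genes past the threshold in purple. Itga10 and Icam4 in the first 2 panels and Itgb5 and Icam4 in the third are not drawn, since the fit gave no usable error for them. The purple points lie on both sides of 0 in DC2 and DC3.

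The beta 2 integrins were compared first. Itgax encodes CD11c, an alpha chain of a complement receptor and the common marker of conventional DCs. It was 479 and 532 CPM in untreated DC2 and 231, 272 and 325 CPM in TLI DC2. In the other subsets it was 161 and 140 CPM (untreated DC1a), 84.1 to 123 CPM (TLI DC1a), 77.4 and 93.7 CPM (untreated DC1b), 98.4 to 207 CPM (TLI DC1b), 142 and 221 CPM (untreated DC3) and 78.8 to 138 CPM (TLI DC3). Every DC2 library was above every library of the other subsets. Itgax was higher in DC2 than in DC1a by a log2 fold change of 1.26 ± 0.19 (SE; adjusted p = 0.00052) and than in DC1b by 1.62 ± 0.19 (adjusted p = 0.00026). It was lower in DC3 than in DC2 by -1.44 ± 0.19 (adjusted p = 0.00027). All 3 calls held when any single library was left out. With TLI libraries alone the DC2 to DC1b difference did not pass (adjusted p = 0.471), and with untreated libraries alone neither the DC2 to DC1a nor the DC3 to DC2 difference did (adjusted p = 0.0562 and 0.0744).

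Itgam encodes CD11b, the alpha chain of complement receptor 3 on myeloid cells and on type 2 DCs. It was 29.7 and 35.8 CPM in untreated DC2, and 34.7, 0.211 and 94.2 CPM in TLI DC2 of pools 1, 3 and 4. The DC1a libraries held 0 to 0.453 CPM. All DC2 libraries but that of TLI pool 3 were above every DC1a and every DC3 library, the latter reaching 12.4 CPM. By means over libraries Itgam was 217-fold higher in DC2 (38.9 CPM) than in DC1a (0.18 CPM), with a fitted log2 fold change of 7.34 ± 1.74 (adjusted p = 0.0158). Without TLI DC2 of pool 3 the adjusted p was 0.0064. That library was singled out by its low Itgam, so this value gives no support to the call. With untreated libraries alone the adjusted p was 0.136, and with TLI libraries alone 0.0551. The call was lost without either untreated DC1a library (adjusted p = 0.0665 and 0.13) and missed the threshold without TLI pools 1 and 2 (adjusted p = 0.0511). Exons of Itgam overlap those of Gm49368 on the same strand, whose own level in DC2 was 0 to 19.6 CPM, so counts may be split between them.

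Itgal encodes CD11a, the alpha chain of LFA-1, which binds ICAMs. It was 209 and 182 CPM in untreated DC1b against 61.2 and 60.3 CPM in untreated DC1a, and it ranged from 5.45 to 268 CPM in TLI DC2. It passed in no comparison. Itgb2, the shared beta 2 chain (CD18), ran from 95.7 to 514 CPM and also passed in none. Itgad encodes CD11d, an alpha chain best known on splenic red pulp macrophages. It was at most 1.27 CPM in DC1a, 30 and 19.6 CPM in untreated DC1b, and 60.8, 20, 3.9 and 2.29 CPM in TLI DC1b of pools 1 to 4. The highest level was 146 CPM, in TLI DC2 of pool 1. DC1b stood above DC1a in every library, but the difference did not pass (adjusted p = 0.267). The libraries with over 50 CPM were those with the most red pulp macrophage markers, 2296 CPM in TLI DC1b of pool 1 and 2870 CPM in TLI DC2 of pool 1; their part in the result was not tested. In untreated DC1b, where an exon of Itgad overlaps one of Cox6a2 on the other strand, Cox6a2, itself a plasmacytoid DC marker, stood at 1703 and 2520 CPM, and reads of the pair cannot be told apart without strand.

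As a share of the 4 alpha chains that pair with beta 2, counted per kb, Itgax made up 75.5% to 78.1% in untreated DC1a and 76.0% to 80.1% in untreated DC2. In untreated DC1b it made up 29.1% and 37.5%, with Itgal at 57.6% and 53.2% and Itgad at 12% and 8.36%. In TLI DC1b the Itgax share was 33.4% and 41.8% in pools 1 and 2 and 79.6% and 81.6% in pools 3 and 4. The untreated DC1b libraries were those rich in plasmacytoid DC markers. The ratio of Itgb2 to the summed alpha chains per kb was 0.53 to 1.24 in all 8 untreated libraries and 0.557 to 6.74 in the 15 TLI libraries.

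**Figure D3:**
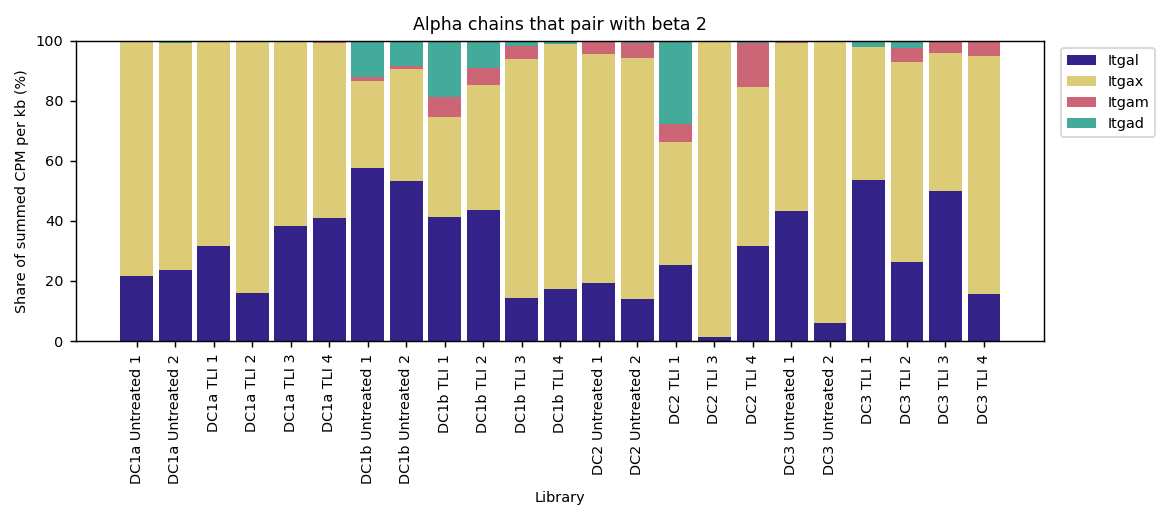
Share of each beta 2 partner (Itgal, Itgax, Itgam, Itgad; percent of their summed CPM per kb, stacked to 100%) in each library. Itgax fills most of each DC1a bar, Itgal fills 57.6% and 53.2% of the untreated DC1b bars, and Itgad is widest in TLI DC2 of pool 1 at 27.8%.

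The alpha E, alpha 4 and beta 7 chains followed. Itgae encodes CD103, which pairs with beta 7 and binds E-cadherin. It was 35.3 and 24.8 CPM in untreated DC1a and 49, 58.1, 86 and 66.1 CPM in TLI DC1a. In DC2 it was 0 to 0.425 CPM over the 5 libraries. In untreated DC1b it was 0 and 1.08 CPM, and in TLI DC1b 14, 19.7, 33 and 29.1 CPM. The paper reports higher CD103 staining on DC1b than on DC1a or DC2 cells from BALB/c spleen. That is surface protein, and the untreated RNA levels here had another order. The DC1a libraries were above all DC2 and DC3 libraries, where DC3 ran from 0 to 22 CPM. Itgae was 336-fold lower in DC2 (mean 0.158 CPM) than in DC1a (53.2 CPM), with a fitted log2 fold change of -8.39 ± 1.87 (adjusted p = 0.0105). The call was lost without either untreated DC2 library (adjusted p = 0.0511 and 0.0949) and within batch 1 (0.0936). The TLI to untreated gap in DC1b, 24.0 ± 8.66 CPM (SD, n = 4) against 0.54 ± 0.76 CPM (n = 2), did not overlap and did not pass (adjusted p = 0.335). Between the same libraries plasmacytoid DC markers went from 5588 and 7882 CPM to 37.7 to 143 CPM, and neutrophil markers from 22.3 and 0.839 CPM to 1420 to 20950 CPM; their part in the result was not tested. Cdh1, which encodes E-cadherin and was looked up after these values were seen, was 41.9 and 34.9 CPM in untreated DC1b and at most 6.73 CPM in any other library.

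Itga4 encodes CD49d, which pairs with beta 1 or beta 7 to bind VCAM-1 or MAdCAM-1. It was 726 and 654 CPM in untreated DC2 and 437, 407 and 341 CPM in TLI DC2, against 267 and 353 CPM in untreated DC1a and 130 to 192 CPM in TLI DC1a. Within each treatment every DC2 library exceeded every DC1a library. The log2 fold change of DC2 over DC1a was 0.97 ± 0.26 (adjusted p = 0.0293). The call was lost without either untreated DC1a library (0.194 and 0.0897), either untreated DC2 library (0.106 and 0.0728), TLI DC1a of pool 4 (0.0529) or TLI DC2 of pool 1 (0.0769), and within batch 1 (0.138).

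Itgb7 encodes the beta 7 chain. It was 234 and 221 CPM in untreated DC3 and 112, 407, 97.4 and 93.8 CPM in TLI DC3. In DC1a it was 34 and 27.1 CPM untreated and 51, 100, 18.5 and 27.2 CPM after TLI, so that 1 DC1a library fell inside the DC3 range. DC3 was higher than DC1a by a log2 fold change of 2.15 ± 0.50 (adjusted p = 0.042). Leaving out 1 library ended the call for 15 of the 23, with an adjusted p of up to 0.287, and within batch 1 it was 0.0973. NK cell markers were 550 and 287 CPM in untreated DC3 and 120 to 4201 CPM in TLI DC3, against 2.72 and 2.62 CPM in untreated DC1a and 7.58 to 300 CPM in TLI DC1a; in untreated DC3 6 of the 7 were over the floor in both libraries, with Prf1 at 0, and in untreated DC1a Klrb1c, Gzma and Gzmb were at 0. Their part in the result was not tested. Per kb, Itgb7 was 1.57 and 2.41 times Itgb1 in untreated DC3 and 0.282 and 0.454 times Itgb1 in untreated DC1a.

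**Figure D4:**
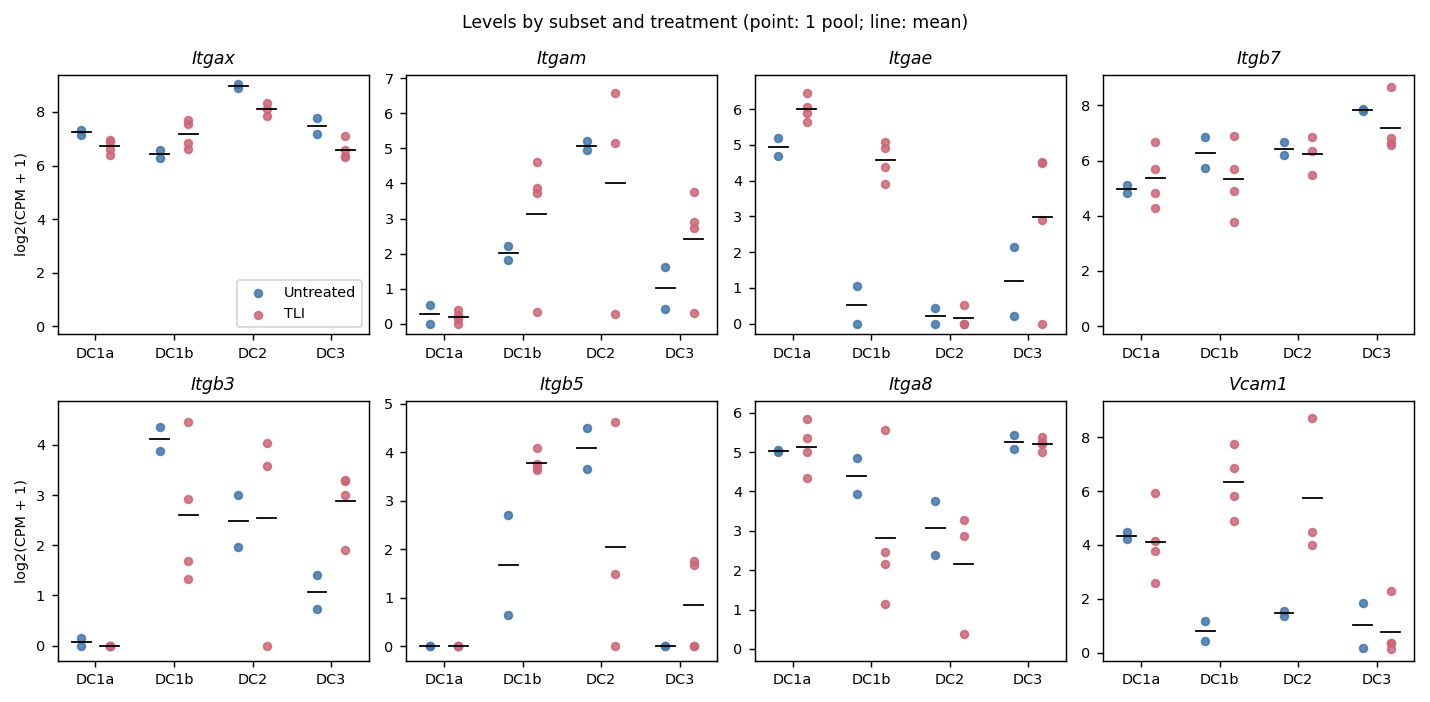
Levels, as log2(CPM + 1) on the vertical axis, of 8 genes by subset, with 1 point per pool (blue untreated, red TLI) and a line at the mean of the logs. Itgax is highest in DC2, Itgae in DC1a, and Itgb3 and Itgb5 sit at or near 0 in all 6 DC1a libraries.

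The beta 1 chain gene Itgb1 was even across subsets, from 90.8 to 278 CPM, and passed in no comparison. Among its alpha partners, Itga8, which encodes a receptor for nephronectin, was 30.9 and 32.4 CPM in untreated DC1a, 19.2 to 55.8 CPM in TLI DC1a and 31 to 41.8 CPM in DC3. It was 12.5 and 4.26 CPM in untreated DC2 and 0.298, 6.27 and 8.65 CPM in TLI DC2, below every DC1a and DC3 library. Itga8 was lower in DC2 than in DC1a by a log2 fold change of -3.07 ± 0.84 (adjusted p = 0.0351). With the pool as a block, which compares subsets within the same mice, the adjusted p was 0.0553, and without TLI pools 1 and 2 it was 0.0679. The call was also lost without either untreated DC1a library (0.1 and 0.095), either untreated DC2 library (0.0931 and 0.192) or TLI DC2 of pool 1 or 3 (0.07 and 0.0521). The antisense gene E030013I19Rik overlaps an exon of Itga8 and stood at 10.4 to 15.9 CPM in DC1a libraries, so those reads cannot be told apart. Itga6, a laminin receptor chain, was at or below the floor in all 5 DC2 libraries and 0.349 to 5.16 CPM in DC1a. It was at least 15.3-fold lower in DC2 than in DC1a (adjusted p = 0.049). That call was lost in 21 of the 23 fits without 1 library (up to 0.209), with the pool as a block (0.0919) and within batch 1 (0.178).

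The remaining alpha partners passed in no comparison. Itga5, the fibronectin receptor chain, was 0.0942 and 0.2 CPM in untreated DC1b and 0.526 to 18.9 CPM in TLI DC1b, a gap with an adjusted p of 0.0952. Itga9 was highest in TLI DC2 of pool 1 at 31.1 CPM and at most 0.174 CPM in DC1a; DC2 was above DC1a with an adjusted p of 0.051. Itga1, a collagen receptor chain, was 8.24 to 24.5 CPM in DC3 and lower in most DC1b libraries (0 to 10.8 CPM). Itga3 was at most 14.2 CPM, and Itga2, Itga7, Itga10 and Itga11 at most 4.02 CPM.

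In the alpha v group, Itgb5, whose chain pairs with alpha v, had 0 counts in all 6 DC1a libraries, which allows up to the 3-count floor in each. It was 0.565 and 5.56 CPM in untreated DC1b, 11.4 to 15.9 CPM in TLI DC1b, 21.7 and 11.6 CPM in untreated DC2 and 23.8, 1.81 and 0 CPM in TLI DC2. DC3 held 0 CPM in 4 libraries and 2.18 and 2.4 CPM in TLI pools 1 and 2, and gave no usable test against DC1a. All 6 DC1b libraries were above DC1a. By means over libraries it was at least 96.5-fold higher in DC1b (adjusted p = 0.0224) and at least 118-fold higher in DC2 (adjusted p = 0.0126) than in DC1a. The call in DC1b was lost with the pool as a block (0.074), without TLI pools 1 and 2 (0.0663), without either untreated DC1a library (0.177 and 0.168) and without untreated DC1b of pool 2 (0.0628). That in DC2 was lost without TLI pools 1 and 2 (0.0547) and without either untreated DC1a library (0.0977 and 0.089).

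Itgb3 encodes the beta 3 chain, known from the platelet fibrinogen receptor and the vitronectin receptor. In DC1a it was at or below the floor in all 6 libraries. It was 13.7 and 19.3 CPM in untreated DC1b and 1.52, 6.56, 20.9 and 2.2 CPM in TLI DC1b. In DC2 it was 2.89, 6.96, 15.4, 11 and 0 CPM, and in DC3 0.666 to 8.89 CPM. Every DC1b and DC3 library lay above DC1a. The level was at least 107-fold higher in DC1b (adjusted p = 0.0114), at least 72.7-fold higher in DC2 (0.0088) and at least 49.5-fold higher in DC3 (0.0456). Without either untreated DC1a library the adjusted p was 0.0819 and 0.123 in DC1b and 0.0543 and 0.0811 in DC2. The call in DC3 was lost in 19 of the 23 fits without 1 library (up to 0.28), with the pool as a block (0.0824) and without TLI pools 1 and 2 (0.121). Its platelet partner Itga2b was at most 4.03 CPM, and summed platelet and megakaryocyte markers (8 genes) were 0.274 to 89.8 CPM over all libraries, with Treml1 at 0 in DC1a; their part in the result was not tested. Itgav, the alpha v chain itself, ran from 0.997 to 56 CPM and passed in no comparison. Itgb6 and Itgb8, other partners of alpha v, and Itgb4, the partner of alpha 6, were at most 1.52 CPM in any library.

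Of the 8 genes called in DC2 against DC1a, 5 have an entry in the RefSeq promoter table used here (Itgax, Itgam, Itga4, Itgb5 and Itga8), as do 20 of the 32 genes in all. Their 250 bases before the listed start are shown because these genes differed between the same subsets. Sequences are from build GRCm38.p6, on the strand of the gene. Capitals mark matches, on either strand, to GAGGAA (the core of PU.1 sites), TGTGGT (RUNX), TGANTCA (AP-1), GTGGGAA (RBPJ), the NF-kB consensus and a composite of an ETS and an IRF site, which can overlap GAGGAA.
Itgax, chr7:128129300-128129549, plus strand: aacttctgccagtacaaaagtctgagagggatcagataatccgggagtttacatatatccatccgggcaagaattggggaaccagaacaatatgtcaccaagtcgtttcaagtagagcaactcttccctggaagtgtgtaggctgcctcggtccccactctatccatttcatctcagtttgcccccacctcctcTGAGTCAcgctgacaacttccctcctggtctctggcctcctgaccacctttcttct
Itgam, chr7:128062390-128062639, plus strand: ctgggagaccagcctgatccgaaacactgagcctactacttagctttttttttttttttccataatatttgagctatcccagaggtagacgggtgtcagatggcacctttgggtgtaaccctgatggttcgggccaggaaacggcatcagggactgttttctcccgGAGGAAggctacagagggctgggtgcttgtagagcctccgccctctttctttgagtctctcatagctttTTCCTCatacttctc
Itga4, chr2:79255176-79255425, plus strand: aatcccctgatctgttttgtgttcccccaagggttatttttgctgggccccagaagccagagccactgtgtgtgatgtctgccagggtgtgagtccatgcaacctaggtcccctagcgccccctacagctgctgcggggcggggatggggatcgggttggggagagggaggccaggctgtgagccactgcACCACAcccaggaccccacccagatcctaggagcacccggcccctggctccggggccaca
Itgb5, chr16:33829415-33829664, plus strand: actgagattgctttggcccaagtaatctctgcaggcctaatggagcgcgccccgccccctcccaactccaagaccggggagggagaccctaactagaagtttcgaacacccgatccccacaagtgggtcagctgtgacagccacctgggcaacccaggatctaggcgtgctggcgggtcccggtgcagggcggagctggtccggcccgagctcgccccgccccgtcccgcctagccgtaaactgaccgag
Itga8, chr2:12301945-12302194, minus strand: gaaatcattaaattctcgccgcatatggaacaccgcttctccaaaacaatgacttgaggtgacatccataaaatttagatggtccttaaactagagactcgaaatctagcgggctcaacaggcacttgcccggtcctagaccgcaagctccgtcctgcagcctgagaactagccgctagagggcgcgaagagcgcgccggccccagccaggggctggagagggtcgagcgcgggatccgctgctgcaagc
The Itgam window held 2 matches to GAGGAA, 1 on each strand, the Itgax window 1 palindromic match to TGANTCA, and the Itga4 window 1 match to TGTGGT on the other strand. The Itgb5 and Itga8 windows held none of the 6 motifs. Among 32851 promoters of the same length, 23.3% held GAGGAA, 14.0% TGTGGT, 6.7% TGANTCA, 5.4% GTGGGAA, 1.4% the NF-kB consensus and 2.3% the composite. Among the 22 entries for the 20 adhesion genes, 36.4% held GAGGAA, 9.1% TGTGGT, 4.5% TGANTCA, 4.5% the composite and 0 the other 2. A match is a run of letters and not a measured site.

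The immunoglobulin family ligands and Selplg varied more with pool and treatment. Vcam1 encodes a ligand of alpha 4 integrins that is made by endothelium, stroma and red pulp macrophages. It was 17.4 and 21.2 CPM in untreated DC1a and 16.8, 59.8, 12.7 and 5 CPM in TLI DC1a. In DC3 it was 0.137 and 2.59 CPM untreated and 3.84, 0.111, 0.281 and 0.285 CPM after TLI, below every DC1a library. Vcam1 was 18.4-fold lower in DC3 (1.21 CPM) than in DC1a (22.2 CPM), with a log2 fold change of -4.44 ± 0.89 (adjusted p = 0.0149). With untreated libraries alone the adjusted p was 0.394, and with no batch term 0.149. The call was lost without untreated DC3 of pool 1 (0.116) and within batch 1 (0.146). Vcam1 was also lower in DC3 than in DC2 (log2 fold change of -3.55 ± 0.85, adjusted p = 0.0278), where the untreated libraries overlapped at 1.95 and 1.56 CPM in DC2. With untreated libraries alone the adjusted p was 0.939, and with no batch term 0.148. That call was lost without TLI pools 1 and 2 (0.071), without either untreated DC2 library (0.0726 and 0.0577), without untreated DC3 of pool 1 (0.148), without TLI DC2 of pool 1 (0.0752) and within batch 1 (0.128).

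Selplg encodes PSGL-1, the leukocyte ligand of P-selectin. It was 292 and 593 CPM in untreated DC3, 439, 1178, 407 and 358 CPM in TLI DC3, 184 and 189 CPM in untreated DC2 and 273, 89 and 217 CPM in TLI DC2. Every DC3 library was above every DC2 library. DC3 was higher by a log2 fold change of 1.35 ± 0.34 (adjusted p = 0.0383). The call was lost with the pool as a block (0.067), without TLI pools 1 and 2 (0.0834), within batch 1 (0.132) and in 11 of the 23 fits without 1 library (up to 0.253). Icam1, the LFA-1 ligand, ran from 24.4 to 237 CPM and Icam2 from 0 to 28 CPM. Pecam1, which encodes CD31, was 38.6 and 54.2 CPM in untreated DC1b and 6.75 to 13.2 CPM in TLI DC1b. In DC2 it was 14.8 and 50.2 CPM untreated and 1.55 to 16.8 CPM after TLI. Plasmacytoid DC markers in DC1b were 5588 and 7882 CPM untreated and 37.7 to 143 CPM after TLI, and their part in the Pecam1 levels was not tested. Icam1, Icam2 and Pecam1 passed in no comparison.

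TLI was compared with no treatment within each subset. The fit held 1 batch shift, shared by all subsets and estimated from the TLI libraries. Fitted TLI fold changes therefore refer to batch 1, while means in CPM are over all TLI libraries of a subset. 1 gene passed in 1 subset: Vcam1 in DC1b. In DC1b that was 1 of 27 tested genes, beside 0.413% of all genes (0.199% higher, 0.214% lower). In DC1a, DC2 and DC3 edgeR called 0, beside 0.0102% (0.0051% in each direction), 0.0612% (0.0408% higher, 0.0204% lower) and 0.0255% (0.0102% higher, 0.0153% lower) of all genes. In these subsets 5, 5 and 4 of the genes had an unadjusted p under 0.05, and DESeq2 called 1, 3 and 2. The median log2 fold change of the tested genes was 1.00 in DC1a, 1.31 in DC1b, 0.49 in DC2 and 0.26 in DC3, beside 0.15, 0.09, 0.02 and -0.05 over all genes; with genes at the floor in 1 group set to their bound it was 1.05, 1.31, 0.49 and 0.38.

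In DC1b, Vcam1 was 1.27 and 0.36 CPM untreated and 214, 115, 55.8 and 28.8 CPM after TLI in pools 1 to 4. Every TLI library was above both untreated ones. By means over all TLI pools it was 127-fold higher (104 ± 82.1 CPM, SD, n = 4, against 0.816 ± 0.645 CPM, n = 2). The fitted log2 fold change, which refers to batch 1, was 8.42 ± 1.63 (adjusted p = 0.0278). The call was lost without either untreated DC1b library (0.221 and 0.29) and within batch 1 (0.161). Without TLI pools 1 and 2, where TLI and batch cannot be told apart, the log2 fold change was 6.05 (adjusted p = 0.0407). Summed red pulp macrophage markers (10 genes) were 135 and 104 CPM in the untreated DC1b libraries and 2296, 1893, 387 and 201 CPM in the TLI ones, in the same order of pools as Vcam1; their part in the result was not tested. In untreated DC1b 7 of the 10 markers were over the floor in both libraries, with Cd5l at 0, and in TLI DC1b 7 were in all 4 libraries. In DC2, Vcam1 was 1.95 and 1.56 CPM untreated and 421, 15 and 21 CPM after TLI, without overlap, and did not pass (adjusted p = 0.112). Red pulp macrophage markers there were 2870 CPM in TLI pool 1 and 211 to 338 CPM in the other 4 libraries.

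Icam4 encodes an ICAM known from erythroid cells. It had 0 counts in all 8 untreated libraries, which allows up to the 3-count floor in each. After TLI it was 69.6, 3.27, 1.54 and 2.61 CPM in DC1a, 8.88, 16.9, 0 and 0 CPM in DC1b, 14.6, 0 and 0 CPM in DC2 and 9.33, 4.8, 0 and 4.87 CPM in DC3. It was over the floor in all 7 TLI libraries of pools 1 and 2 and in 3 of the 8 of pools 3 and 4. The lower bound of the fold was 175 in DC1a, 49.3 in DC1b, 35.0 in DC2 and 37.4 in DC3, and none passed (adjusted p = 0.385, 0.321, 0.488 and 0.364). Erythroid markers (6 genes) summed to 19288 to 133558 CPM in the 7 libraries of pools 1 and 2 and 143 to 7144 CPM in those of pools 3 and 4; their part in the result was not tested.

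**Figure D5:**
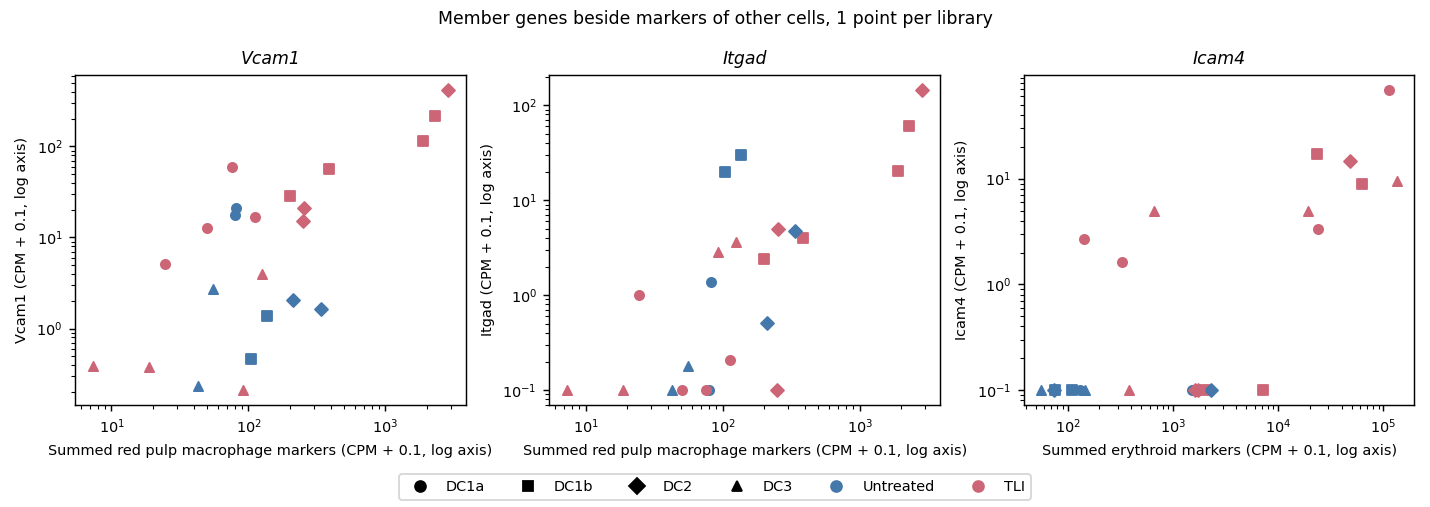
Vcam1 and Itgad against summed red pulp macrophage markers and Icam4 against summed erythroid markers, in CPM + 0.1 on log axes, with 1 point per library (shape for subset, blue untreated, red TLI). The 3 libraries with 1893 to 2870 CPM of macrophage markers hold the 3 highest Vcam1 levels, and all 7 libraries with 19288 CPM or more of erythroid markers have Icam4 above 3 CPM.

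Itgax and Itga4 gave values with less spread. After TLI Itgax was lower in DC2 (276 ± 47.4 CPM, n = 3, against 506 ± 37.7 CPM, n = 2), and lower in DC1a and DC3, but higher in DC1b (151 ± 52.9 CPM, n = 4, against 85.6 ± 11.6 CPM, n = 2). The log2 fold changes were -0.64 in DC1a, 0.84 in DC1b, -1.20 in DC2 and -1.03 in DC3, and none passed (adjusted p = 0.461, 0.232, 0.155 and 0.248). The untreated and TLI DC1b libraries also differed in plasmacytoid DC and neutrophil markers, as given with Itgae, and the part of these in the result was not tested. A test of whether the TLI effect differed among the 4 subsets called 0 of the 27 genes (0.0357% of all genes), with 3 at an unadjusted p under 0.05 (Itgax, Vcam1 and Itga5; adjusted p = 0.101, 0.129 and 0.486) and 3 called by DESeq2. Itga4 was lower after TLI in DC1a, DC2 and DC3, with all libraries apart (158 ± 28.6 against 310 ± 60.8 CPM, 395 ± 49.1 against 690 ± 51.4 CPM and 260 ± 109 against 413 ± 89.8 CPM, SD, n = 4, 3 and 4 against 2), and passed in none (adjusted p = 0.369, 0.407 and 0.465).

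Genes that act with the integrins were counted in the same tests. Of 44 tested genes for integrin activation and adaptors, DC2 against DC1a called 9 higher and 0 lower (7.01% of all genes), DC1b against DC1a 6 higher and 1 lower (2.89%), DC3 against DC1a 3 higher (1.4%), DC3 against DC1b 1 higher and 4 lower (1.33%), DC3 against DC2 3 lower (3.33%) and DC2 against DC1b 0 (0.75%). TLI called 1 higher in DC1b (0.413%) and 0 in DC1a, DC2 and DC3. The list's median log2 fold change in DC2 against DC1a was 0.43 (0.38 with genes at the floor set to their bound). In the same order of subset comparisons after it, the medians were 0.05, 0.12, 0.02, -0.16 and 0.19. Over all genes the 6 medians were 0.08, 0.05, 0.03, -0.03, -0.01 and -0.04. In the TLI comparisons the medians were 0.43 in DC1a, 0.50 in DC1b, -0.13 in DC2 and 0.22 in DC3 (0.43, 0.40, -0.14 and 0.20 with bounds).

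Apbb1ip, which encodes RIAM, the link from Rap1 to talin, was 38.5 to 39.7 CPM in untreated DC1a and 233 to 260 CPM in untreated DC2. Its log2 fold change against DC1a was 2.18 ± 0.22 in DC2 (adjusted p = 7.23e-06) and 1.99 ± 0.21 in DC1b (adjusted p = 2.65e-05). Fyb encodes ADAP, an adaptor that couples receptors to integrin activation. It was 2.88 ± 0.34 higher in DC2 and 2.40 ± 0.33 higher in DC1b than in DC1a on the log2 scale (adjusted p = 4.28e-05 and 0.000345), and lower in DC3 than in DC2 by -3.06 ± 0.35 (adjusted p = 5.18e-05). Fgr, a Src family kinase that signals below beta 2 integrins, differed from DC1a by 4.60 ± 0.58 in DC2 and 4.39 ± 0.57 in DC1b (adjusted p = 7.96e-05 and 0.00019). All 3 genes were thus higher in DC1b and in DC2 than in DC1a, and lower in DC3 than in either. In DC1b, Apbb1ip was 187 and 255 CPM untreated and 90.5 to 198 CPM after TLI. Fyb there was 646 and 1055 CPM untreated and 199 to 326 CPM after TLI, and Fgr 174 and 184 CPM and 41.4 to 184 CPM. The untreated DC1b libraries were those rich in plasmacytoid DC markers, whose part in these results was not tested. Rasgrp2, the exchange factor for Rap1, was higher than in DC1a in the other 3 subsets, by 3.53 ± 0.44 in DC1b, 2.58 ± 0.42 in DC2 and 2.65 ± 0.42 in DC3 (adjusted p = 0.000124, 0.00097 and 0.00174). Flna, an actin crosslinker that binds integrin tails, was the gene called after TLI in DC1b: it went from 61.3 and 108 CPM to 181 to 307 CPM (log2 fold change 1.5 ± 0.26, adjusted p = 0.0146). Between the same libraries plasmacytoid DC markers went from 5588 and 7882 CPM to 37.7 to 143 CPM. Neutrophil markers went from 22.3 and 0.839 CPM to 1420 to 20950 CPM. The part of these markers in the Flna result was not tested.

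Of 23 tested other ligands of integrins, DC1b against DC1a called 1 higher and 1 lower (2.89% of all genes), DC2 against DC1a 2 higher (7.01%), DC3 against DC2 2 lower (3.33%), and TLI in DC1b 1 higher (0.413%); the other 6 comparisons called 0. The medians were 1.16, 1.67, 0.68, 0.70, -0.13 and -0.91 for DC1b, DC2 and DC3 against DC1a, DC2 and DC3 against DC1b and DC3 against DC2 (1.16, 1.28, 0.33, 0.52, -0.13 and -0.67 with bounds), and 0.71, 0.93, 2.20 and 0.37 for TLI in DC1a, DC1b, DC2 and DC3 (0.55, 1.0, 2.23 and 0.37 with bounds). Fn1, which encodes fibronectin, the ligand of alpha 5 and alpha 4 integrins, was 0.0942 and 0.12 CPM in untreated DC1b and 68.8 to 147 CPM after TLI (adjusted p = 0.00863). In DC2 it was 1.14 and 1.67 CPM untreated and 54.7 to 176 CPM after TLI, and in DC1a at most 0.244 CPM. In the DC1b libraries summed markers of neutrophils went from at most 22.3 CPM to 1420 to 20950 CPM. Those of red pulp macrophages went from 104 and 135 CPM to 201 to 2296 CPM. Of the monocyte markers, F13a1 went from 0 and 0.16 CPM to 23.9 to 63.5 CPM and Fcgr1 from 0 to 5.48 to 90.4 CPM. Csf1r went from 49.4 and 77.7 CPM to 120 to 394 CPM and Vcan from 0 to 1.5 to 13.2 CPM. Ccr2 went from 135 and 128 CPM to 110 to 307 CPM. Ly6c2 fell from 1480 and 2348 CPM to 157 to 742 CPM, and the summed list from 1664 and 2553 CPM to 710 to 1109 CPM. Their part in the result was not tested. Adam17, a sheddase with a disintegrin domain, was higher in DC2 than in DC1a by 2.26 ± 0.43 on the log2 scale (adjusted p = 0.00335). Adam8 was lower in DC1b than in DC1a by -2.44 ± 0.46 (adjusted p = 0.00603).

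Of 36 tested other adhesion molecules, DC2 against DC1a called 5 higher and 3 lower (7.01% of all genes), DC3 against DC1a 4 higher and 1 lower (1.4%), DC1b against DC1a 3 higher (2.89%), DC3 against DC2 2 higher and 1 lower (3.33%), DC3 against DC1b 1 of each (1.33%) and DC2 against DC1b 1 lower (0.75%); TLI called 0 in each subset. The medians in that order were 0.17, 0.69, 0.56, 0.05, -0.14 and -0.06 (0.15, 0.69, 0.56, -0.01, -0.14 and -0.08 with bounds), and 1.08, 0.67, 0.64 and 0.58 for TLI in DC1a, DC1b, DC2 and DC3 (0.83, 0.55, 0.54 and 0.57 with bounds). Cd209a, a C-type lectin that is also among the type 2 DC markers used above, was 8.09 to 16.7 CPM in untreated DC1a and 930 to 937 CPM in untreated DC2 (log2 fold change 6.04 ± 0.44, adjusted p = 2.05e-07). Alcam, a homotypic adhesion molecule that also binds CD6, was higher than in DC1a by 1.97 ± 0.28 in DC3 and 1.59 ± 0.28 in DC2 (adjusted p = 0.000658 and 0.00173). Emb, the basigin relative embigin, was higher than in DC1a by 4.34 ± 0.65 in DC2, 3.58 ± 0.61 in DC1b and 2.52 ± 0.57 in DC3 (adjusted p = 0.000491, 0.0027 and 0.0352), and L1cam by 3.68 ± 0.64, 3.75 ± 0.63 and 4.27 ± 0.66 (adjusted p = 0.00157, 0.00249 and 0.00142).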

How the data were processed

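RNA was measured in 23 libraries of sorted spleen DCs. Per the labels, cDNA was made from few cells with a SMARTseq v4 kit and libraries with a KAPA HyperPlus kit; strand is not given in the sources used here. The authors trimmed reads with Trimmomatic, aligned them to GRCm38 with HISAT2 and deposited StringTie's estimated counts per gene, which are whole numbers and were used as deposited. The test plan had assumed read counts; the same test applies. Symbols came from a reference table of gene names (47224 of 47729 identifiers matched), and exon lengths and overlaps from the GENCODE annotation of the same build.

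Genes passing filterByExpr (19597) were fitted in edgeR 4.0.16 (R 4.3.3) by the quasi-likelihood test, with TMM scaling, 8 groups of subset and treatment, and batch as a covariate; subset comparisons averaged the untreated and TLI differences. The SE is the fold change divided by the root of F. Where groups were at 0 the fit could fail: Icam4 has no usable test between subsets, nor has Itgb5 in DC3 against DC1a. Lower bounds of folds take 3 counts per library as the floor, which covers counting error only. Residual df were 14 and the common biological coefficient of variation 1.08. P-values measure the spread between libraries of the same subset and treatment, each from 1 pool of mice. The main fit had no term for pool, so libraries of different subsets taken as the same mice counted as independent.

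On simulated data edgeR made hardly any false calls and missed most changed genes, while DESeq2 recovered more and made more false calls than true ones. The simulated counts were drawn with edgeR's own dispersion estimates and without batch or pool effects. They therefore cannot show how either tool behaves on these libraries. DESeq2 1.42.0 was an alternative, as were scaling, filters, the batch term, the pool as a block, single batches and treatments, and leaving out each library.

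Pools share a number across subsets within a treatment, taken as the same mice. Residual correlations within a pool were -0.16 to 0.067 over genes, and TLI and untreated pools are different mice. All 32 members are accounted for and those past the threshold named, with at most 5 genes of each other list, those called in the most comparisons, ties broken by the smallest adjusted p. A gene that this rule names is not reported here. Members and lists were chosen with earlier results of these data known. Promoters are RefSeq's; in 19 of 22 entries bases after the listed start were found near the start of an annotated transcript.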

Additional observations from a re-analysis of the deposited data

Results flagged for a closer look

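In the 3 TLI groups with 4 libraries, 76 combinations of gene and group with at least 1 library over the floor were screened by Dixon's critical value for 4 samples for a library far from the other 3. That value lets chance mark about 1 in 20 groups of normally distributed values, which CPM with many zeros are not, so no chance rate is known here. The screen marked 19, and the libraries came from pool 1 in 6, pool 2 in 5, pool 3 in 2 and pool 4 in 6.

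Pool 2 held high values of abundant genes. In TLI DC1a of pool 2, Itgb1 was 278 CPM (123 to 128 CPM in the other 3 pools) and Icam1 237 CPM (54.4 to 82.2). In TLI DC3 of pool 2, Itgb7 was 407 CPM (93.8 to 112), Selplg 1178 CPM (358 to 439) and Icam2 28.0 CPM (0 to 4.36). In the same 2 libraries Itgb2 was 440 and 514 CPM.

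In pool 1, Icam4 was 69.6 CPM in TLI DC1a (1.54 to 3.27) and Vcam1 3.84 CPM in TLI DC3 (0.111 to 0.285). Also in pool 1, Itga3 was 6.82 CPM and Itgb8 0.739 CPM in TLI DC1a, Itga2b 4.03 CPM in TLI DC1b and Itga9 2.56 CPM in TLI DC3. In pool 4, Itgav was 32.3 CPM (3.57 to 7.84), Itga6 5.16 CPM (1.51 to 1.88), Itga10 1.41 CPM and Itgad 0.896 CPM in TLI DC1a, and Itga8 45.8 CPM (1.21 to 4.51) and Itga10 4.02 CPM in TLI DC1b. In pool 3, Itga1 was 10.8 CPM (0 to 0.477) and Itgb8 0.194 CPM in TLI DC1b.

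The TLI effect on Itgax differed between DC2 and DC1b by -2.04 ± 0.38 on the log2 scale (edgeR adjusted p = 0.0475 over genes), the 1 difference past the threshold among 6 pairs of subsets, with no adjustment over the pairs. Plasmacytoid DC markers in DC1b were 5588 and 7882 CPM untreated and 37.7 to 143 CPM after TLI, and their part in the result was not tested. The test over all 4 subsets at once did not pass (adjusted p = 0.101).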

How the results depend on the processing

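Counts are of members called, in the order DC1b, DC2 and DC3 against DC1a, DC2 and DC3 against DC1b, and DC3 against DC2, where the reported counts are 2, 8, 3, 1, 0 and 3. Leaving out 1 library gave 0 to 3, 2 to 9, 0 to 3, 1 to 2, 0 to 0 and 1 to 5. DESeq2 gave 5, 10, 4, 4, 5 and 11; no filter 3, 8, 3, 1, 3 and 7; a minimum of 10 counts in every library, which tests fewer genes, 0, 2 and 1 in the first 3; no batch term 1, 5, 0, 1, 0 and 1; the pool as a replicate block 1, 6, 2, 1, 0 and 2; batch 1 alone 3, 6, 1, 1, 0 and 3; batch 2 alone 0 in all 6; untreated alone 0, 0, 0, 1, 0 and 0; TLI alone 0, 3, 1, 0, 1 and 2; and, chosen after seeing the data, without TLI pools 1 and 2, 1, 5, 2, 1, 0 and 2. For TLI in DC1a, DC1b, DC2 and DC3 (reported 0, 1, 0 and 0), DESeq2 gave 1, 6, 3 and 2. For TLI in DC1b a minimum of 10 counts, no batch term, batch 1 alone and that subset alone each gave 0, leaving out 1 library 0 to 1, and leaving out TLI pools 1 and 2 gave 3 (Itgax, Itgb2 and Vcam1). That subset alone gave 1 in DC1a (Selplg), and no filter 1 in DC2 (Vcam1). For the interaction (reported 0), DESeq2 gave 3 and no filter 1. The cause of these shifts was not tested. No paired analysis was possible for TLI because treated and untreated pools are different mice. Beyond the calls named with it in the text, the block ended none. None of the 18 calls changed sign; without 1 library they passed 316 times and missed 98 times, and with the other settings 105 and 78 times. The calls of Itgax alone held without each library.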
